A study of Mus musculus with 22 samples.

Results

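Collagens are the main structural proteins of the extracellular matrix, and the 44 genes described here are every row of the expression table, 46603 in all, whose symbol has the form Col, number, a, number. They fall into 11 fibrillar collagens, 6 basement membrane collagens and 27 others: 6 beaded filament, 9 fibril-associated, 3 short-chain network, 2 multiplexin, 4 transmembrane and 3 anchoring or other collagens. The genes were read out by RNA sequencing of total RNA from the intestine of wild-type male C57BL/6 mice, an inbred laboratory strain, which were 7 weeks old when the diets began. For 7 weeks the mice ate an irradiated diet of one composition that differed only in its added fibre, 8% by weight: cellulose (the control fibre, which gut bacteria ferment poorly), inulin (a chain of fructose units that they ferment) or pectin (a plant cell wall polymer of galacturonic acid that they ferment too). In all groups fat gave 35% of the diet's calories, protein 20% and carbohydrate 45%. Exposed mice drank water with PFOS (perfluorooctanesulfonic acid, a persistent fluorinated surfactant) at 3 µg per kg body weight a day. A treatment entry of all samples names PFOS, so exposure was read from the sample titles. The 6 groups were cellulose alone (Control, n = 4), cellulose with PFOS (PFOS, n = 4), inulin alone (Inulin, n = 3), inulin with PFOS (Inulin_PFOS, n = 3), pectin alone (Pectin, n = 4) and pectin with PFOS (Pectin_PFOS, n = 4). The titles call the samples biological replicates without saying that each is a separate animal, so p-values measure the spread between these samples. The gut segment is not given in the sources used here.

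Collagen chains wind in threes into a triple helix, which is hydroxylated and folded in the endoplasmic reticulum, secreted, trimmed by proteases and cross-linked outside the cell. Types I, III and V form the fibrils that give the gut wall its tensile strength, type IV forms the sheet under the epithelium and around vessels and muscle cells, and type VI forms beaded filaments between them. In the intestine most fibrillar collagen is made by fibroblasts and smooth muscle cells, so a bulk sample reads the number of such cells together with what each makes: fewer cells of a type and less RNA per cell cannot be told apart in these data.

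The stretch of 250 bases just before the transcription start is shown for 4 members on which the results turn. Col3a1 was called lower with pectin and PFOS together in both comparisons that gave calls. Col6a3 and Col5a1 were called lower in 1 of them, and Col7a1 had an order of groups unlike that of most members. The windows lie at chr1:45311288-45311537 on the plus strand (Col3a1), chr1:90843972-90844221 on the minus strand (Col6a3), chr2:27886175-27886424 on the plus strand (Col5a1) and chr9:108953336-108953585 on the plus strand (Col7a1), on the build GRCm38.p6 with sequences from RefSeq, and hold 0 annotated exons. They are written 5′ to 3′ on the gene's strand, and capitals mark matches, on either strand, to the CCAAT box (letters CCAAT), the GC box (letters GGGCGG) and the TATA box (letters TATAAA).
Col3a1: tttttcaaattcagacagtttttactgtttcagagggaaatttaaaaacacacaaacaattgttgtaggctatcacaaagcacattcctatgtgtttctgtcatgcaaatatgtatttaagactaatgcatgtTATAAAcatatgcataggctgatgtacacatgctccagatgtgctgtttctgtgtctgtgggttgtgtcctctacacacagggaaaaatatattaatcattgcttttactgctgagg
Col6a3: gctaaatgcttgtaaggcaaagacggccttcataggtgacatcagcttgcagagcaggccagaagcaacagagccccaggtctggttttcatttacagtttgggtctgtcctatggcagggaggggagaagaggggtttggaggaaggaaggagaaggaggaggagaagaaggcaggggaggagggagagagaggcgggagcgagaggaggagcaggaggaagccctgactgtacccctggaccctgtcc
Col5a1: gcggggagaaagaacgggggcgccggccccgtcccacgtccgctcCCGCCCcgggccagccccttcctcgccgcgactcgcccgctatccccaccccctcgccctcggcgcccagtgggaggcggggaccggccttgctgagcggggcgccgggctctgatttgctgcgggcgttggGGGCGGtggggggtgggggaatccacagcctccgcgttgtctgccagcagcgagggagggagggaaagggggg
Col7a1: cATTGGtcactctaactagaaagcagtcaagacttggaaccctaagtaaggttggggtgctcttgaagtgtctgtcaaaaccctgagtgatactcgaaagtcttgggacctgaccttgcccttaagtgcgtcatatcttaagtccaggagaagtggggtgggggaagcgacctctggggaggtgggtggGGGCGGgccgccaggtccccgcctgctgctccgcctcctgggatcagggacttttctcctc
The Col3a1 window held 1 match to TATAAA and 35.2% G and C, whereas that of Col5a1 held 2 matches to GGGCGG, 1 on each strand, and 76.4% G and C. The Col6a3 window held none of the 3 motifs, and that of Col7a1 held 1 match to CCAAT, on the other strand, and 1 to GGGCGG. Of the 44 collagens, 35 had a promoter in the table. Among them 21 held GGGCGG on either strand (60%, against 35.4% of all 27025 genes with a window of this length), 13 held CCAAT (37.1%, against 37.5%) and 5 held TATAAA (14.3%, against 14.3%). No 2 matches overlapped in the windows shown, and a match describes letters only, not binding.

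Collagen transcripts were a small part of this tissue's RNA. They took between 0.00708% and 0.0937% of a library's counts. On the length-corrected TPM scale (transcripts per 1000000, as deposited), Col3a1, the chain of type III collagen, had the highest mean level over the 22 libraries, 22.9, and ranked 3817 among 25590 genes with a level above 0. Col6a1 (13.9 TPM), Col1a2 (12.7 TPM), Col6a2 (10.9 TPM) and Col4a1 (9.34 TPM) followed. The chains of types I, III, IV and VI filled the first 8 places, which also held Col4a2 (6.79 TPM), Col1a1 (5.78 TPM) and Col6a3 (5.65 TPM).

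Partner chains of a type kept a similar order of level in every library. Type I collagen is usually built with more Col1a1 than Col1a2 chains. The TPM level of Col1a2 was 1.64 to 3.20 times that of Col1a1. Col4a1 lay at 1.11 to 1.70 times the TPM level of Col4a2, its partner in the ubiquitous form of type IV. Col6a1 lay at 1.04 to 1.61 times the TPM level of Col6a2. Col3a1 had 2.56 to 6.30 times the TPM level of Col1a1. All 4 ratios stayed above 1 in the 22 libraries, and types I and III together made up 23.3% to 42.4% of all collagen TPM.

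At the other end, 8 members did not pass the filter on low counts and were not tested: Col22a1, Col17a1, Col26a1, Col11a1, Col6a6, Col2a1, Col19a1 and Col10a1. Col17a1, a transmembrane collagen of the hemidesmosome, reached at most 0.38 TPM in a library. Col2a1, the cartilage collagen, reached at most 0.13 TPM and was listed at 0 in 12 of 22 libraries. Col19a1 had 1 count in all and Col10a1, the collagen of hypertrophic cartilage, had 0 counts in every library. The remaining 36, made up of 9 fibrillar, 6 basement membrane and 21 other collagens, passed. Because the filter keeps a gene that is high enough in some libraries, these 36 are not a picture of all members. Some members, such as Col4a3, Col9a1, Col25a1 and Col28a1, passed mainly through Control or PFOS libraries. For them a lower value against those groups is favoured by the filter.

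Library totals ranged from 17613322 to 20261370 counts and mitochondrial genes took 2.85% to 14.9% of them. All 8 markers of intestinal epithelium were present, with a summed level of 10865 to 45943 CPM (counts per 1000000 after TMM scaling, the scale used below for differences between groups). Replicate 1 of Pectin_PFOS stood apart: its TMM factor was the lowest of the 22 (0.749), it had the fewest genes with at least 10 counts (12927), and it was the lowest library for 28 of the 36 collagens tested. The Pectin_PFOS group as a whole also stood low, with 2.85% to 3.51% of counts in mitochondrial genes, against 4.26% to 9.16% in PFOS and 3.88% to 7.36% in Pectin. It had 12927 to 14385 genes with at least 10 counts, against 14706 to 14931 in PFOS and 14403 to 14935 in Pectin, so these measures did not overlap. Their part in the results below was not tested. The counts of calls in the comparisons with Pectin_PFOS are given with and without its replicate 1.

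Summed over the 44 members, collagen TPM was highest with PFOS on cellulose and lowest with PFOS on pectin. The sum was 162 ± 54.7 in Control, 202 ± 22.8 in PFOS, 72.3 ± 23.0 in Inulin, 113 ± 24.9 in Inulin_PFOS, 112 ± 28.2 in Pectin and 66.8 ± 37.2 in Pectin_PFOS (mean ± SD, n as above). Without its replicate 1 the Pectin_PFOS sum was 82.6 ± 24.3 (SD, n = 3), above that of Inulin. By class the order was much the same: fibrillar collagens summed to 69.4 ± 12.1 TPM in PFOS and 23.5 ± 11.4 TPM in Pectin_PFOS, and basement membrane collagens to 30.4 ± 4.72 and 9.33 ± 6.21 TPM. On the CPM scale the sums of PFOS and Control lay close together, at 667 ± 89.7 and 636 ± 257 (mean ± SD, n = 4 each). Their medians were 651 and 654 CPM. Pectin_PFOS stayed lowest, at 274 ± 137 CPM, with Inulin at 290 ± 119 CPM. Of the 36 collagens tested, 22 had their highest group mean CPM in PFOS, 10 in Control, 3 in Inulin and 1 in Inulin_PFOS. The lowest group mean lay in Pectin_PFOS for 17, in Inulin for 15 and in Pectin for 4.

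**Figure D1:**
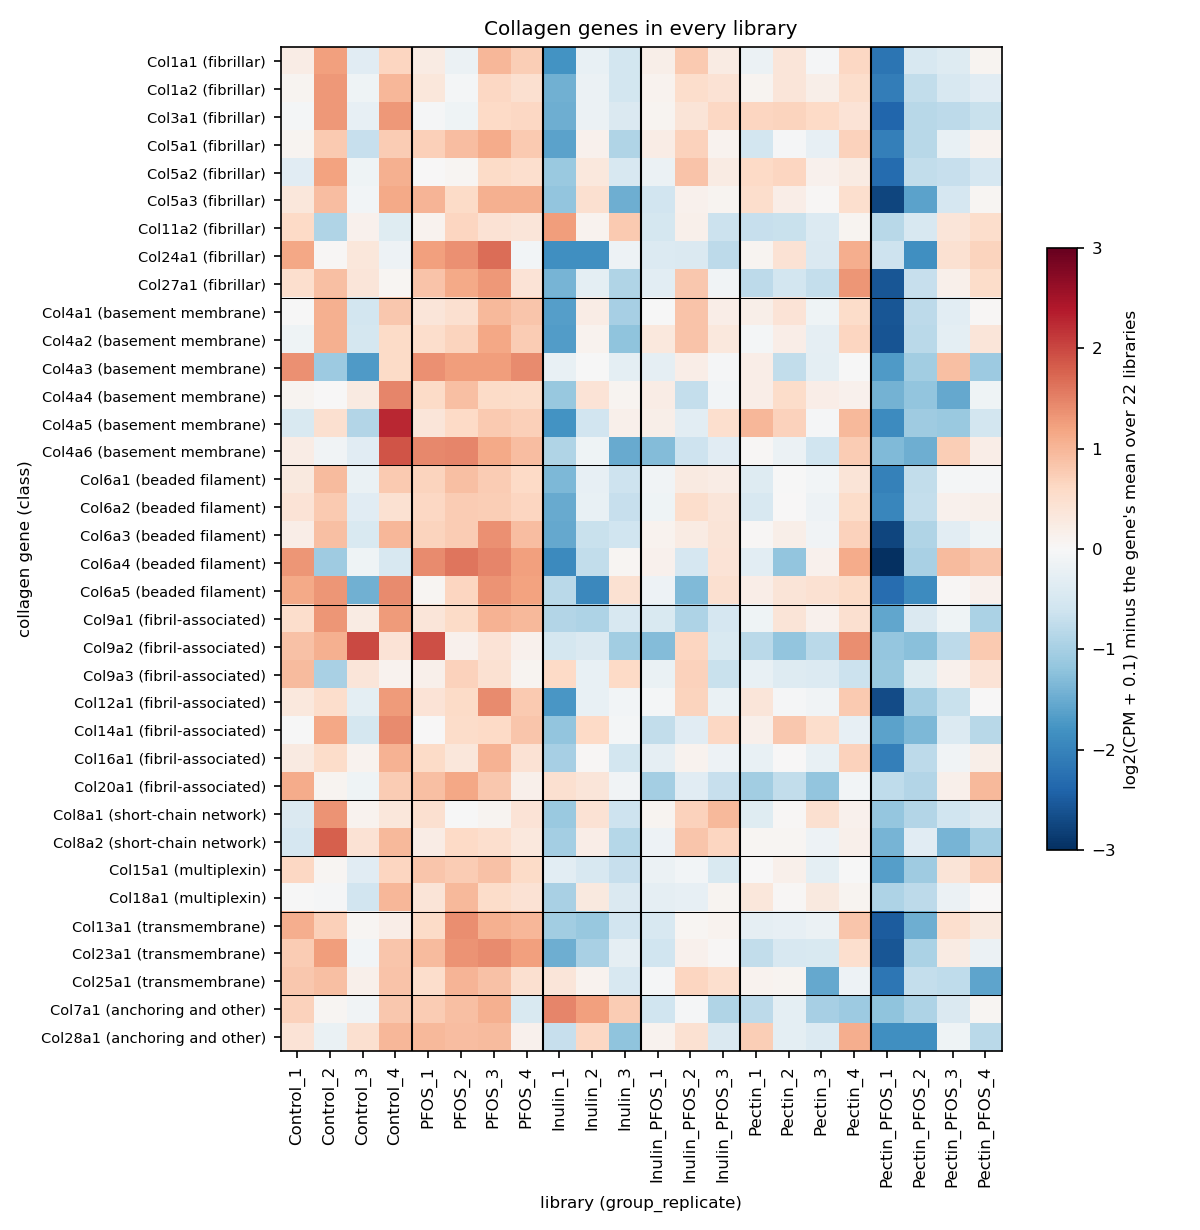
Level of the 36 tested collagens (rows, with class) in the 22 libraries (columns, by group), as log2(CPM + 0.1) minus the gene's mean over all libraries; red is above and blue below that mean. The 4 PFOS columns are mostly red, the first Pectin_PFOS column is the darkest blue and is the lowest library for 28 of 36 genes, and Col7a1 is red in the 3 Inulin columns.

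Within most groups the libraries differed more for collagens than for all genes, which were not matched to them for level. The median coefficient of variation over the 36 collagens was 60.2% in Pectin_PFOS, 46.5% in Control and 43.8% in Inulin, against 24.6%, 30.6% and 25.5% over all 15763 genes tested. In PFOS it was 20.0%, close to the 19.0% of all genes. Within Control, replicate 3 was the lowest library for 25 of the 36, and within Inulin replicate 1 was the lowest for 22.

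The comparison of pectin with cellulose under PFOS (Pectin_PFOS against PFOS) asks whether the fibre goes with a different level in exposed mice, and it held most of the collagen calls. All 36 tested collagens had a lower mean in Pectin_PFOS, with a median log2 fold change of -1.35 and a range from -2.63 to -0.40. A gene was called at a Benjamini-Hochberg adjusted p under 0.05 in edgeR's quasi-likelihood test over all genes, and 22 collagens were called lower and 0 higher. That is 61.1% of the 36, where 8.33% of all genes tested were called lower and 16% were called in either direction. The libraries of the groups did not overlap for 26 collagens, all lower, as against 14.5% of all genes. Both counts include Col9a1, Col25a1 and Col28a1, which passed the low-count filter mainly through Control or PFOS libraries. The median log2 fold change over all genes was -0.03.

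Among the fibrillar collagens 5 of 9 were called lower, with a class median of -1.23 on the log2 scale. Col3a1 (chr1:45311538-45349706, plus strand) had levels of 80.7, 75.2, 124 and 128 CPM in the 4 PFOS libraries and of 15.7, 46.2, 47.8 and 51.4 CPM in the 4 Pectin_PFOS libraries. The groups did not overlap, and replicate 1 of Pectin_PFOS lay far under the other three. Its fold change was 2.53-fold lower (log2 -1.34 ± 0.37 SE, edgeR adjusted p = 0.0218). Col5a3, a chain of type V collagen that nucleates fibrils, had levels of 6.69, 4.92, 6.89 and 6.90 CPM in PFOS and of 0.395, 0.995, 2.25 and 3.39 CPM in Pectin_PFOS. These groups were also apart, with a log2 fold change of -1.83 ± 0.48 (SE, edgeR adjusted p = 0.015).

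Col5a1, the main type V chain, had levels of 17.4, 20.0, 22.9 and 18.2 CPM in PFOS and of 2.44, 5.85, 8.96 and 11.4 CPM in Pectin_PFOS, a log2 fold change of -1.45 ± 0.41 (SE, edgeR adjusted p = 0.0237). Every PFOS library was above every Pectin_PFOS library. Col1a2 (log2 -1.13, edgeR adjusted p = 0.0288) and Col5a2 (log2 -1.23, edgeR adjusted p = 0.0381) were the other members called. Col1a1, the major chain of type I collagen, had levels of 29.7, 22.2, 50.1 and 42.0 CPM in PFOS and of 5.40, 17.8, 19.1 and 26.7 CPM in Pectin_PFOS. The highest Pectin_PFOS library lay above the lowest PFOS library, and Col1a1 was not called (log2 -1.06 ± 0.41 SE, edgeR adjusted p = 0.0817). Col11a2, a chain of cartilage fibrils, had the smallest difference of all 36 (log2 -0.40, edgeR adjusted p = 0.48).

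Of the 6 basement membrane collagens, which encode the type IV chains, 3 were called lower and the class median was -1.63 on the log2 scale. In all 6 the libraries of the groups were apart. For Col4a3 this is favoured by the low-count filter, which it passed mainly through PFOS. It had 14 to 16 counts in the PFOS libraries and at most 9 in Pectin_PFOS. Col4a4 was at 0.831, 1.06, 0.821 and 0.815 CPM in PFOS and at 0.132, 0.176, 0.113 and 0.470 CPM in Pectin_PFOS (log2 -1.93 ± 0.50 SE, edgeR adjusted p = 0.0142). It rests on few reads, 2, 3, 2 and 9 counts in the Pectin_PFOS libraries. Col4a5 was at 4.11, 4.87, 5.57 and 5.32 CPM in PFOS and at 0.790, 1.46, 1.41 and 2.14 CPM in Pectin_PFOS (log2 -1.76 ± 0.55 SE, edgeR adjusted p = 0.0353). These are chains of the more restricted type IV networks, and each lies head to head with a partner: Col4a4 beside Col4a3 with 71 bases between them, Col4a5 beside Col4a6 with 1308.

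Col4a1, with Col4a2 the chain of nearly all basement membranes, was at 57.1, 61.9, 86.5 and 78.3 CPM in PFOS and at 7.38, 25.8, 35.3 and 45.6 CPM in Pectin_PFOS. The log2 fold change was -1.31 ± 0.45 (SE) and the edgeR adjusted p was 0.0497, just inside the threshold. Col4a2 lay just outside it, at a log2 fold change of -1.29 and an edgeR adjusted p of 0.0619. The pair overlaps head to head by 22 bases on opposite strands of chromosome 8. Col4a6 (log2 -1.50, edgeR adjusted p = 0.0665) and Col4a3 (log2 -2.14, edgeR adjusted p = 0.0672) were not called.

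Of the 21 other collagens 14 were called lower. The type VI chains make the beaded filaments that tie cells to the fibrils, and 3 of the 5 tested were called. Col6a3 (chr1:90765923-90843971, minus strand) was at 27.7, 30.0, 45.7 and 33.5 CPM in PFOS and at 2.50, 9.37, 14.2 and 15.9 CPM in Pectin_PFOS, a 3.25-fold lower level (log2 -1.70 ± 0.39 SE, edgeR adjusted p = 0.00867). Col6a1 (log2 -1.27, edgeR adjusted p = 0.0147) and Col6a2 (log2 -1.08, edgeR adjusted p = 0.0441) were called with it. Col6a4, a chain related to Col6a3, was not (edgeR adjusted p = 0.177), and its Pectin_PFOS level was 9.56 ± 8.18 CPM against 23.9 ± 2.54 CPM in PFOS (SD, n = 4 each).

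Transmembrane collagens sit in the cell surface and shed their outer part. All 3 tested were called lower. Col23a1 was at 13.2, 17.4, 18.4 and 16.1 CPM in PFOS and at 1.05, 3.45, 8.06 and 6.00 CPM in Pectin_PFOS (log2 -1.80 ± 0.43 SE, edgeR adjusted p = 0.00997). Col25a1 had the smallest adjusted p of the collagens, 0.00621 in edgeR, with 0.554, 0.819, 0.730 and 0.527 CPM in PFOS and 0, 0.176, 0.169 and 0.0522 CPM in Pectin_PFOS. The latter are 0, 3, 3 and 1 counts, so the groups were apart but the log2 fold change of -2.63 ± 0.57 (SE) is loosely set. Col13a1 was called with an edgeR adjusted p of 0.0476 (log2 -1.40).

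Fibril-associated collagens coat the fibrils and set their spacing. Col12a1 (log2 -1.68, edgeR adjusted p = 0.0196), Col14a1 (log2 -1.52, edgeR adjusted p = 0.0235), Col16a1 (log2 -1.12, edgeR adjusted p = 0.0402) and Col9a1 (log2 -2.13, edgeR adjusted p = 0.0146) were called lower. Col9a1 had 0, 2, 3 and 1 counts in the Pectin_PFOS libraries. Col20a1 (edgeR adjusted p = 0.194), Col9a2 (edgeR adjusted p = 0.194) and Col9a3 (edgeR adjusted p = 0.434) were not called.

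The last calls fell in the smaller classes. Col8a2 (log2 -1.42, edgeR adjusted p = 0.0208) is a network collagen of vessels and cornea. Col18a1, the source of endostatin, was 2.02-fold lower (log2 -1.02, edgeR adjusted p = 0.0264), while Col15a1, the other multiplexin, was not called (log2 -0.88, edgeR adjusted p = 0.0994). Col7a1, which builds the anchoring fibrils of the basement membrane, was 2.38-fold lower (log2 -1.25, edgeR adjusted p = 0.021) with overlapping groups. Col28a1 had a log2 fold change of -2.50 (edgeR adjusted p = 0.0275) on 0, 0, 4 and 2 counts in Pectin_PFOS. Col18a1 overlaps Slc19a1, Col9a3 overlaps Tcfl5 and Col5a1 overlaps 2810430I11Rik on the opposite strand, and the use of strand in counting is not given in the sources used here, so their values are uncertain.

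The number of calls depended on single libraries, whereas the direction kept its sign. Without replicate 1 of Pectin_PFOS 7 collagens were called, without replicate 2 of Pectin_PFOS 9, without replicate 3 of PFOS 7 and without replicate 2 of PFOS 13, and all 36 were lower in Pectin_PFOS under each of these omissions. Calls over all genes fell too: without replicate 1 of Pectin_PFOS 3.88% were called lower and 8.14% in either direction. The shares of all genes under the other omissions are not given here. Col23a1, Col25a1, Col4a4, Col5a3, Col6a1, Col6a3 and Col9a1 were called under each of the 22 omissions of a library and each of the 6 other settings tried. Among these, Col25a1 and Col9a1 passed the low-count filter mainly through Control or PFOS libraries, which favours a lower value here.

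**Figure D2:**
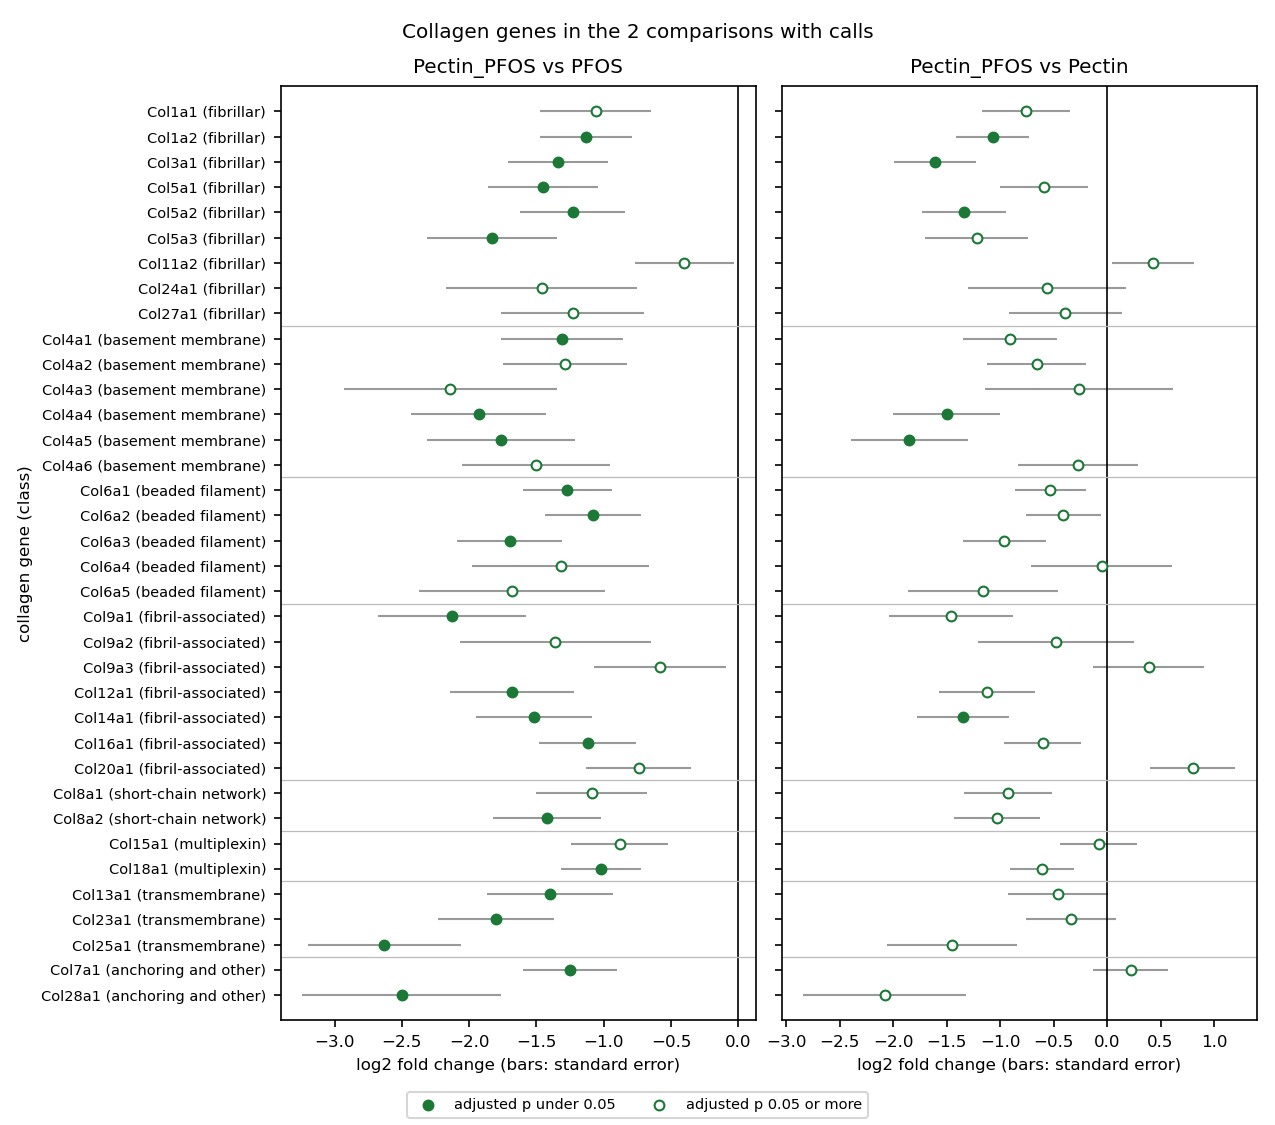
Log2 fold change (x axis) with its standard error for the 36 tested collagens by class, in Pectin_PFOS against PFOS and in Pectin_PFOS against Pectin; filled points have an adjusted p under 0.05. All 36 points lie left of 0 in the first panel, 22 of them filled, and 32 of 36 in the second, 6 of them filled; the panels share the Pectin_PFOS libraries.

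**Figure D3:**
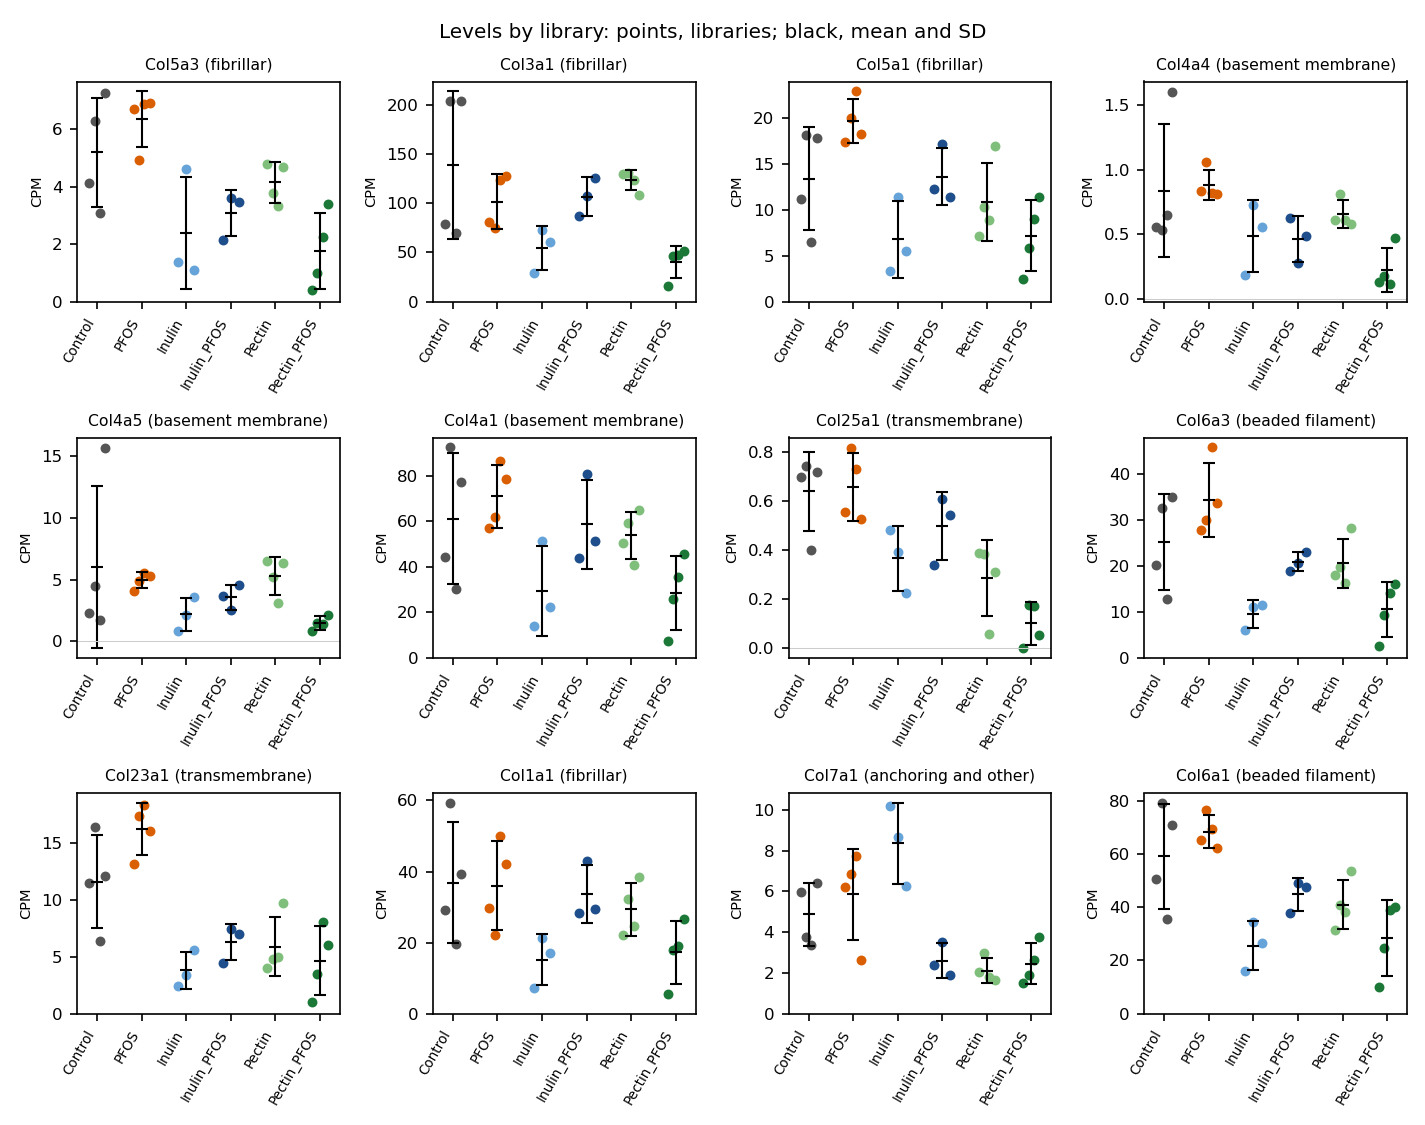
CPM (y axis, from 0) of 12 collagens in every library by group, with the mean and SD in black. In the panels other than Col7a1 most Pectin_PFOS libraries lie under every PFOS library, Control is widely spread, and Col7a1 has its highest group mean in Inulin.

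Markers of other cell types moved with this comparison, in which 8.33% of all genes were called lower and 7.7% higher. Of 8 fibroblast markers 4 were called lower in Pectin_PFOS than in PFOS, Pdgfra (log2 -1.85) and Dpt (log2 -1.16) among them, and their summed level was 56.7 to 124 CPM in Pectin_PFOS against 147 to 227 CPM in PFOS. Of 8 endothelial markers 3 were called lower, with sums of 6.13 to 52.7 against 53.1 to 90.0 CPM. Of 10 smooth muscle markers none was called, all 10 had a lower mean, and the sums were 841 to 2486 against 2348 to 4262 CPM. Of 8 epithelial markers 3 were called higher, with sums of 22721 to 35166 against 17267 to 42363 CPM. Of 4 pericyte markers 1 was called lower, of 8 markers of enteric neurons and glia 2, of 5 mesothelial markers 0 and of 4 adipocyte markers 0. A lower mean was nevertheless seen for 4 of 5 mesothelial (median log2 -1.78) and 4 of 4 adipocyte markers (median log2 -1.57). The same held for 4 of 4 pericyte markers (median log2 -1.19) and 7 of 8 of enteric neurons and glia (median log2 -0.95). Without replicate 1 of Pectin_PFOS 2 fibroblast markers were called lower and 1 epithelial marker higher, and 0 of the endothelial, pericyte and neuron and glia lists, with medians still at -0.96 for fibroblasts and -1.13 for endothelium. No marker of these lists was at 0 in every library of a group. Their part in the collagen differences was not tested.

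**Figure D4:**
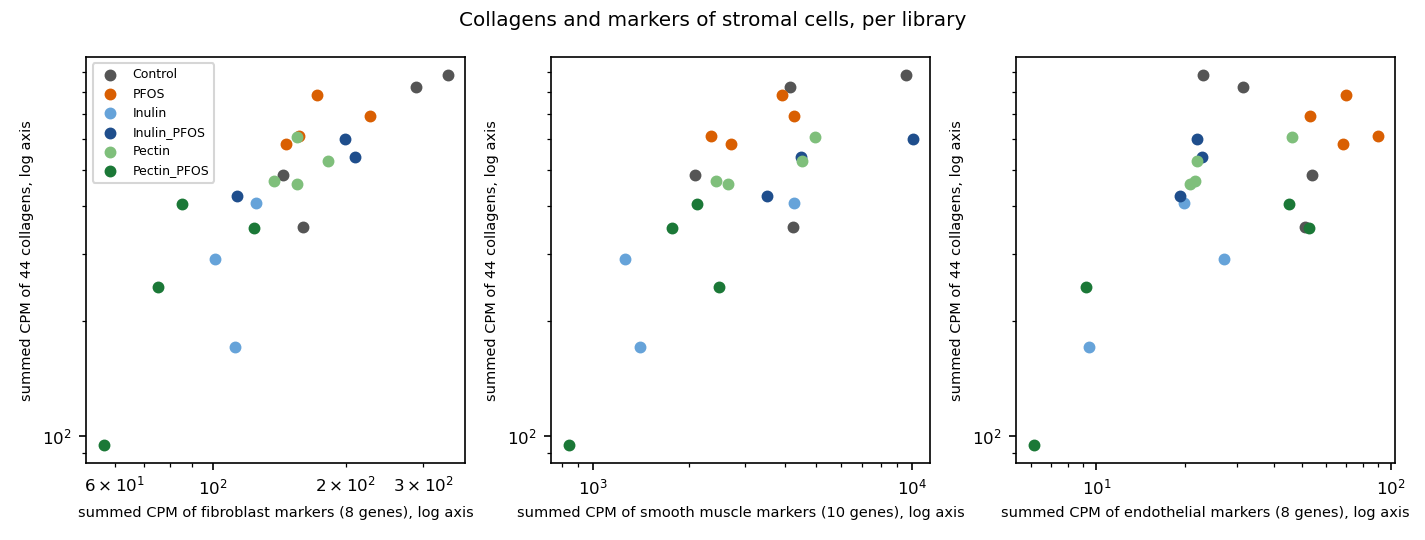
Summed CPM of the 44 collagens (y axis, log) against the summed CPM of fibroblast, smooth muscle and endothelial markers (x axes, log), 1 point per library, coloured by group. The library with the lowest collagen sum, 94.5 CPM, is replicate 1 of Pectin_PFOS and is also lowest for all 3 marker sums.

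Genes that make, trim and bind collagen were taken from 8 lists and read in the same comparison, against the same 8.33% lower and 7.7% higher over all genes. Of 19 genes of chain modification and folding 6 were called lower and 2 higher, with a list median log2 fold change of -0.90, against -0.03 over all genes. P3h1 (log2 -1.19), P3h4 (log2 -0.98) and Fkbp10 (log2 -1.06), which serve prolyl and lysyl hydroxylation, were lower, whereas P4hb, the disulfide isomerase that is also a subunit of prolyl 4-hydroxylase, was higher (log2 1.12, edgeR adjusted p = 0.00824). Of 8 genes of propeptide cleavage 4 were lower and 1 higher (list median log2 -1.31). Adamts2, which cuts the amino-terminal propeptide, had a log2 fold change of -1.59, and Pcolce2, an enhancer of carboxy-terminal cleavage, one of -1.60. Mep1b, a brush border meprin, was the one called higher (log2 1.71, edgeR adjusted p = 0.000835).

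Bmp1, the carboxy-terminal procollagen protease, was lower here (log2 -1.55, edgeR adjusted p = 0.00504). It was also called lower in Pectin against Control (log2 -2.23), Inulin_PFOS against Inulin (log2 -2.34) and Inulin_PFOS against PFOS (log2 -1.75), in none of which a collagen was called. Its call in Inulin_PFOS against Inulin was lost without replicate 1 of Inulin, without replicate 1 or 3 of Inulin_PFOS, and with the compared groups alone (edgeR adjusted p up to 0.129). That in Inulin_PFOS against PFOS was lost without replicate 2 of PFOS or replicate 1 or 3 of Inulin_PFOS (edgeR adjusted p up to 0.0858).

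Of 7 cross-linking genes 5 were lower (list median log2 -1.26), among them the lysyl oxidases Lox (log2 -2.05) and Loxl3 (log2 -1.26) and the peroxidase Pxdn (log2 -1.76), which cross-links type IV, while the transglutaminase Tgm2 was higher (log2 1.77, edgeR adjusted p = 0.0204). Of 14 partners of the fibril 11 were lower and 0 higher (list median log2 -1.64), with Thbs2 (log2 -2.21), Tnxb (log2 -1.88), Aspn (log2 -1.77) and Ogn (log2 -1.64) in front. Of 15 basement membrane partners 10 were lower and 0 higher (list median log2 -1.52), and the 4 with the smallest p were laminin chains: Lamb2 (log2 -1.59), Lamc1 (log2 -1.52), Lama2 (log2 -2.00) and Lama4 (log2 -1.56).

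Breakdown, receptors and signalling were read in the same way. Of 13 genes of collagen breakdown and its inhibitors 3 were lower (list median log2 -1.02), the inhibitors Timp2 (log2 -1.38) and Timp3 (log2 -1.56) and the uptake receptor Mrc2 (log2 -1.87). Of 8 collagen receptors 3 were lower, at a list median of -0.33: Ddr2 (log2 -1.59), Itga11 (log2 -1.27) and Itga1 (log2 -1.06). Of 13 genes of TGF-beta signalling, a main inducer of collagen genes, 4 were lower and 1 higher (list median log2 -0.21). The ligand Tgfb2 (log2 -1.81), the co-receptor Tgfbr3 (log2 -1.74) and the latency protein Ltbp1 (log2 -1.47) were lower, and the signal transducer Smad4 was higher (log2 1.44, edgeR adjusted p = 0.00171).

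These counts too depended on replicate 1 of Pectin_PFOS. Without it 6 of 14 fibril partners and 6 of 15 basement membrane partners were called lower, with list medians of -1.40 and -1.23, and 3.88% of all genes. For chain modification 1 was lower and 1 higher, for propeptide cleavage 1 and 1 (Adamts2 and Pcolce2 were no longer called), and for cross-linking 2 and 1. Breakdown kept its 3 calls, receptors had 1 lower, and TGF-beta signalling had 3 lower and 1 higher.

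PFOS on the pectin diet (Pectin_PFOS against Pectin) gave 6 collagens called lower and 0 higher among the 36, which is 16.7%, where 9.43% of all genes were called lower and 20.8% in either direction. The median log2 fold change was -0.64 and 32 of 36 were negative. This comparison shares the Pectin_PFOS libraries with the one above, so the values stand side by side and are not independent. Col3a1 was at 129.7, 131, 124 and 109 CPM in Pectin, above all 4 Pectin_PFOS libraries, and 3.06-fold lower with PFOS (log2 -1.61 ± 0.38 SE, edgeR adjusted p = 0.0089). Col5a2 (log2 -1.34, edgeR adjusted p = 0.023) and Col1a2 (log2 -1.07, edgeR adjusted p = 0.0321) were the other fibrillar members called.

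Col4a5 was at 6.49, 5.21, 3.11 and 6.33 CPM in Pectin, again above every Pectin_PFOS library (log2 -1.85 ± 0.55 SE, edgeR adjusted p = 0.025). Col4a4 (log2 -1.50, edgeR adjusted p = 0.0413) and Col14a1 (log2 -1.35, edgeR adjusted p = 0.034) completed the calls. Col1a1 (log2 -0.76, edgeR adjusted p = 0.18), Col4a1 (log2 -0.91, edgeR adjusted p = 0.139) and Col6a3 (log2 -0.96, edgeR adjusted p = 0.0797) were not called. The 4 positive values included Col20a1 (log2 0.80, edgeR adjusted p = 0.152). Groups were apart for 11 collagens, all lower, against 13.6% of all genes. Without replicate 1 or replicate 2 of Pectin, or without replicate 1 of Pectin_PFOS, 1 collagen was called, Col3a1, which was called under every omission and every other setting tried. Without the last of these libraries 29 of 36 values were negative, at a median of -0.42. In that setting 3.12% of all genes were called lower and 8.63% in either direction, so 1 of 36 collagens is no excess.

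In the same comparison, where 9.43% of all genes were called lower and 11.4% higher, 9 of 14 fibril partners were called lower and 0 higher, led by Aspn (log2 -2.23), Ogn (log2 -2.15), Postn (log2 -1.67) and Dcn (log2 -1.69). Of 7 cross-linking genes 4 were lower and 0 higher, with Lox (log2 -2.65) in front. Of 15 basement membrane partners 3 were lower, Lama2 (log2 -1.53), Lama4 (log2 -1.14) and Nid1 (log2 -1.18), and 1 higher, the proteoglycan Agrn (log2 1.17). Of 19 genes of chain modification and folding 2 were lower, among them Serpinh1, the collagen chaperone HSP47 (log2 -1.16, edgeR adjusted p = 0.0283), and 2 higher, P4hb (log2 0.84) and the export factor Mia3 (log2 0.60). Of 8 genes of propeptide cleavage 3 were lower, with Pcolce2 (log2 -1.82) and Adamts2 (log2 -1.69) in front, and 2 higher, the meprins Mep1a (log2 1.29) and Mep1b (log2 1.32).

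Of 8 collagen receptors 2 were lower, Ddr2 (log2 -1.16) and the inhibitory receptor Lair1 (log2 -1.28), and 1 higher, Ddr1 (log2 1.02). Breakdown had 4 lower and 0 higher of 13, and TGF-beta signalling 2 lower and 1 higher of 13. Without replicate 1 of Pectin_PFOS, 6 fibril partners, 3 cross-linking genes and 2 genes of propeptide cleavage were called lower and 0 genes of the other 5 lists, where 3.12% of all genes were, while Mep1a, Mep1b, Mia3, Ddr1 and Agrn were still called higher.

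Of 8 fibroblast markers 4 were called lower, and their sum in Pectin was 138 to 183 CPM. Smooth muscle markers gave none of 10 (sum 2426 to 4983 CPM in Pectin), endothelial markers none of 8 and neuron and glia markers none of 8. Of 4 pericyte markers 1 was lower (Rgs5), of 4 adipocyte markers 1 (Lep), and of 8 epithelial markers 3 were higher (Vil1, Cdh17 and Cdx2). Without replicate 1 of Pectin_PFOS 2 fibroblast markers were lower and 1 epithelial marker higher, and the endothelial median went from -0.14 to 0.21. The part of these markers was not tested.

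Inulin against cellulose without PFOS (Inulin against Control) gave 0 collagens called, as it did for all genes (0%). Yet 33 of 36 collagens had a lower mean with inulin, at a median log2 fold change of -1.09 against -0.02 over all genes, and 24 of 36 had an unadjusted p under 0.05, 22 of them negative, where 20.7% of all genes did. DESeq2 called 6 (4.97% of all genes): Col1a2, Col3a1, Col6a1, Col6a3, Col8a2 and Col23a1. Groups did not overlap for 9 collagens, all lower, against 6.12% of all genes. Col6a3 was at 6.02, 10.9 and 11.5 CPM in Inulin and at 20.2, 32.6, 12.8 and 34.9 CPM in Control (log2 -1.41 ± 0.43 SE, edgeR adjusted p = 0.102). Col1a2 had an edgeR adjusted p of 0.088 (log2 -1.32) and Col9a1 the smallest, 0.076 (log2 -2.47). Col9a1 had 1 to 2 counts in the Inulin libraries. Col9a1 and Col9a2, both among the 9 with groups apart, passed the low-count filter mainly through Control or PFOS libraries. For them a lower value here is favoured by the filter.

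Col1a1 was at 7.17, 21.4 and 17.0 CPM in Inulin and at 29.1, 59.3, 19.6 and 39.4 CPM in Control, which overlap (log2 -1.28, edgeR adjusted p = 0.136). Marker sums were apart for fibroblasts, 101 to 125 CPM in Inulin against 145 to 341 CPM in Control, and overlapped for smooth muscle, 1263 to 4266 against 2088 to 9597 CPM. None of either list was called, and all 18 of their genes had a lower mean (medians log2 -1.31 and -1.15). So had all 8 endothelial markers (median log2 -1.45) and 7 of 8 markers of enteric neurons and glia (median log2 -1.61), none of them called. Their part was not tested. The 3 positive collagens included Col11a2 (log2 0.84, edgeR adjusted p = 0.237) and Col7a1 (log2 0.78, edgeR adjusted p = 0.227).

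PFOS on the inulin diet (Inulin_PFOS against Inulin) shares the Inulin libraries with the comparison above and gave 0 calls, where 0.159% of all genes were called. A higher mean with PFOS was seen in 31 of 36, at a median log2 fold change of 0.70, and 12 had an unadjusted p under 0.05 (18.8% of all genes), 2 of them negative. Col1a1 was at 28.3, 43.0 and 29.5 CPM in Inulin_PFOS, above all 3 Inulin libraries (log2 1.14 ± 0.48 SE, edgeR adjusted p = 0.209). Col3a1 was at 87.2, 107 and 126 CPM in Inulin_PFOS and 29.6, 72.7 and 60.9 CPM in Inulin (log2 0.97, edgeR adjusted p = 0.23). Col4a2 had the highest value (log2 1.25, edgeR adjusted p = 0.22). Groups were apart with higher levels for 8 collagens, against 12.2% of all genes, and with lower levels for 2, against 12.1% of all genes. DESeq2 called 1 collagen, Col7a1, among 3.21% of all genes. Some marker lists stood higher too, though none was called: 10 of 10 for smooth muscle (median log2 1.34), 8 of 8 for enteric neurons and glia (0.83) and 7 of 8 for fibroblasts (0.82). Endothelial markers were lower for 1 of 8 (median log2 0.61) and pericyte markers for 2 of 4 (0.54). Other lists went the other way, with a lower mean for 5 of 5 mesothelial markers (median log2 -1.14) and 4 of 4 adipocyte markers (-0.61), none called. Their part was not tested.

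Under PFOS, inulin against cellulose (Inulin_PFOS against PFOS, which shares the PFOS libraries with the pectin comparison) gave 0 calls, where 2.64% of all genes were called. A lower mean was seen for 32 of 36, the median log2 fold change was -0.73, and 9 had an unadjusted p under 0.05, as had 20.5% of all genes. Groups were apart for 17 collagens, all lower, against 14.1% of all genes. The 17 include Col4a3, Col9a1 and Col24a1, which passed the low-count filter mainly through Control or PFOS libraries. For them a lower value here is favoured by the filter. Col23a1 was at 4.48, 7.45 and 6.99 CPM in Inulin_PFOS, under all 4 PFOS libraries (log2 -1.37 ± 0.47 SE, edgeR adjusted p = 0.108). Col20a1 had the smallest edgeR adjusted p, 0.0656 (log2 -1.51), and Col4a6 followed among the type IV chains (log2 -2.11, edgeR adjusted p = 0.0727). With only these 2 groups in the fit 13 collagens were called (10.1% of all genes), with DESeq2 4 (6.98% of all genes). All 8 endothelial markers had a lower mean (median log2 -1.62), Esam was called (log2 -2.27, edgeR adjusted p = 0.0274), and their sums were 19.2 to 22.8 CPM in Inulin_PFOS against 53.1 to 90.0 CPM in PFOS. Of the 4 pericyte markers Pdgfrb was called lower (log2 -1.70, edgeR adjusted p = 0.00838). Smooth muscle markers were higher in mean for 10 of 10 (median log2 0.82) and fibroblast markers for 4 of 8. Their part was not tested.

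Without PFOS, pectin against cellulose (Pectin against Control) gave 0 calls, where 1.99% of all genes were called. All 36 values were negative but most were small, with a median log2 fold change of -0.36. An unadjusted p under 0.05 was seen for 5, all outside the fibrillar and basement membrane classes, and for 18.3% of all genes. Col20a1 (log2 -1.27, edgeR adjusted p = 0.0945) and Col7a1 (log2 -1.21, edgeR adjusted p = 0.0716) were the 2 that DESeq2 called (5.43% of all genes). Values past -1 were also those of Col9a2 (log2 -1.21, edgeR adjusted p = 0.359) and Col25a1 (log2 -1.14, edgeR adjusted p = 0.216). Both of the latter passed the low-count filter mainly through Control or PFOS libraries, which favours a lower value here. The level of Col3a1 was 123 ± 10.2 CPM in Pectin and 139 ± 75.0 CPM in Control (SD, n = 4 each).

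PFOS on cellulose (PFOS against Control) gave 0 calls among collagens and among all genes (0%), and 0 collagens with an unadjusted p under 0.05, against 5.34% of all genes. DESeq2 also gave 0 collagens, and 1 gene of all (0.00634%). The median log2 fold change was 0.26 and 25 of 36 were positive. The highest values belonged to Col4a3 (log2 1.24, edgeR adjusted p = 0.822) and Col6a4 (log2 1.23, edgeR adjusted p = 0.822). Col4a3 passed the low-count filter mainly through PFOS, which favours a higher value here. It had 14 to 16 counts in the PFOS libraries and 0 to 16 in Control, with a Control median of 4. Col6a4 had 23.9 ± 2.54 CPM in PFOS and 10.2 ± 8.17 CPM in Control. Endothelial marker sums were 53.1 to 90.0 CPM in PFOS and 23.1 to 54.1 CPM in Control, and all 8 of these markers had a higher mean with PFOS (median log2 0.73). Fibroblast markers went the other way for 7 of 8 (median log2 -0.62) and smooth muscle markers for 9 of 10 (median log2 -0.63). None was called, and their part was not tested.

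Averaged over the 3 diets, PFOS gave 0 collagen calls, 0 collagens with an unadjusted p under 0.05 (14.9% of all genes) and a median log2 fold change of -0.03, where 0.159% of all genes were called. DESeq2 called 0 collagens and 1.31% of all genes. Whether the PFOS effect differed between diets was tested as an interaction, and 0 collagens and 0 genes (0%) were called for either fibre. For pectin, 34 of 36 interaction values were negative with a median of -1.02, and 8 had an unadjusted p under 0.05 (12.4% of all genes), while DESeq2 called 0 (0.755% of all genes). Col6a3 had a value of -1.41 ± 0.54 (SE, edgeR adjusted p = 0.329) and Col3a1 one of -1.16 (edgeR adjusted p = 0.376). For inulin the median was 0.40 and 5 had an unadjusted p under 0.05 (19.7% of all genes), with Col3a1 at 1.42 (edgeR adjusted p = 0.178). So the lower levels with PFOS on pectin were not shown to differ from the PFOS effect on cellulose.

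**Figure D5:**
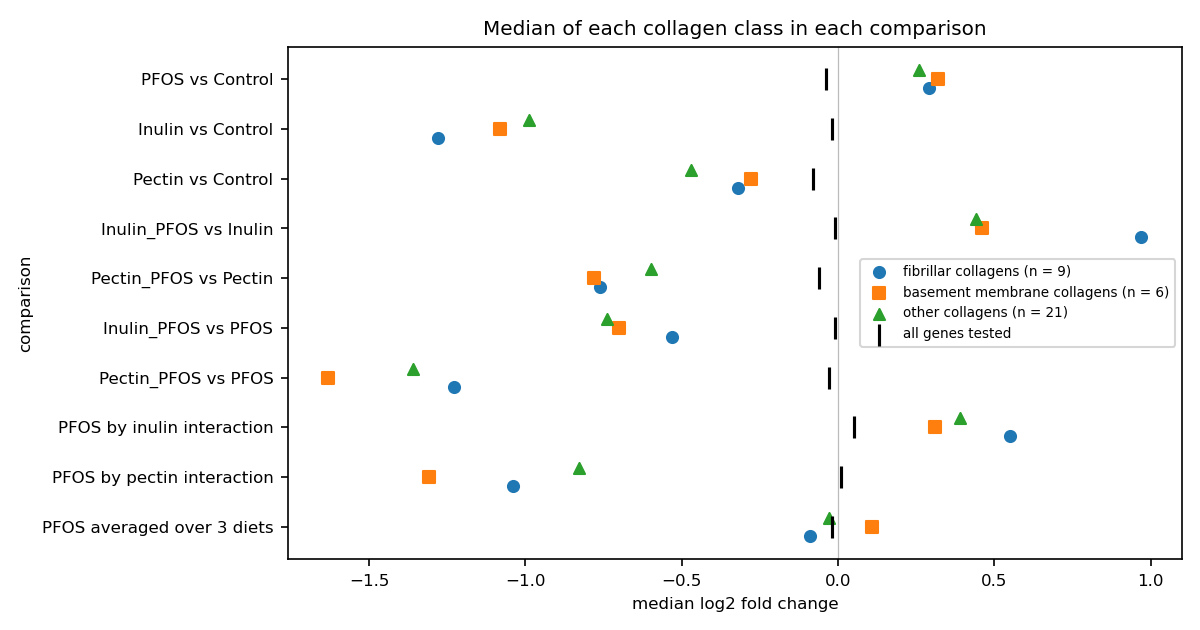
Median log2 fold change (x axis) of fibrillar, basement membrane and other collagens in the 10 comparisons (y axis), with the median of all genes tested as a black bar. The class medians lie on one side of 0 in each comparison but the averaged PFOS effect, and reach -1.63 for basement membrane collagens in Pectin_PFOS against PFOS. They are above 0 in PFOS against Control, in Inulin_PFOS against Inulin and in the inulin interaction.

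Col7a1 (chr9:108953586-108984875, plus strand) followed another order of groups than most members, with its highest mean in Inulin and its lowest in Pectin, as had Col11a2 and Col9a3. Its levels were 10.2, 8.68 and 6.25 CPM in Inulin and 2.38, 3.53 and 1.90 CPM in Inulin_PFOS, so that the lowest Inulin library was above the highest Inulin_PFOS library. The log2 fold change with PFOS on inulin was -1.68 ± 0.40 (SE), the smallest edgeR adjusted p of that comparison's collagens but not past the threshold (0.0735). Its inulin interaction was -1.95 ± 0.52 (SE, edgeR adjusted p = 0.0984), which DESeq2 called as the only collagen among 4.18% of all genes. In Control it was at 5.95, 3.77, 3.35 and 6.42 CPM, and in PFOS at 6.23, 6.84, 7.71 and 2.64 CPM. On pectin it was low with and without PFOS, at 2.05, 2.97, 1.78 and 1.64 CPM in Pectin and at 1.52, 1.87, 2.65 and 3.76 CPM in Pectin_PFOS. Col11a2 had a log2 fold change of -1.14 with PFOS on inulin (edgeR adjusted p = 0.183) and an inulin interaction of -1.58 ± 0.57 (SE, edgeR adjusted p = 0.149). Neither passed the threshold.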

How the data were processed

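Gene expression was measured in 22 libraries of 6 groups. Per the labels' protocols, total RNA was column-purified and made into stranded libraries for a BGI DNBSEQ sequencer. HISAT, Bowtie2 and the build GRCm39 are named, with no version or role, per the submitters' processing notes. The counting program is not given in the sources used here. The authors deposited expected counts and TPM values per gene, per the file headers. Of a library's nonzero deposited counts 9.97% to 11.3% were fractional, and they were rounded before testing. Start and end of 42 of the 44 collagens equal those of GENCODE M21 on GRCm38 (Col20a1 and Col6a5 differ), so coordinates are given on that build.

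Library totals ranged from 17613322 to 20261370 counts. Counts were fitted with edgeR 4.0.16 in R 4.3.3 (TMM scaling, default low-count filter, robust quasi-likelihood F test, 1 mean per group), two-sided, with Benjamini-Hochberg adjustment over 15763 genes in each of 10 comparisons. The common dispersion was 0.102. The CPM scale used here is counts per 1000000 of the TMM-scaled library. Alternatives were DESeq2 1.42.0, library totals in place of TMM, no low-count filter, the compared groups alone, limma 3.58.1 on log2(TPM + 1), the replicate number as a block and leaving out each library. The code was tested on simulated counts.

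Named were the collagens called in any comparison and a set of main chains, with library values for up to 10 chosen by class and p (Col7a1 was added after its values were seen, as were the members named for their highest, lowest or just-missed values), and up to 4 called genes of each pathway list by p. Members and lists were chosen with earlier results of these data known.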

Additional observations from a re-analysis of the deposited data

Results flagged for a closer look

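Within groups of 4 libraries, 7 of 44 sets of values among the collagens with library values held a library far from the others by Dixon's test at the 95% level, where chance gives about 1 in 20. Low in its group was Col3a1 in replicate 1 of Pectin_PFOS, at 15.7 CPM against 46.2 to 51.4 CPM in the others. Col5a3 in replicate 2 of PFOS was low at 4.91 CPM against 6.69 to 6.90 CPM. Col25a1 in replicate 3 of Control was low at 0.399 CPM against 0.698 to 0.744 CPM.

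Col4a4 was high in 3 libraries: replicate 4 of Control, at 1.61 CPM against 0.531 to 0.649 CPM, replicate 2 of PFOS, at 1.06 CPM against 0.815 to 0.831 CPM, and replicate 2 of Pectin, at 0.813 CPM against 0.575 to 0.611 CPM. Col23a1 in replicate 4 of Pectin was high at 9.73 CPM against 4.05 to 4.94 CPM.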

How the results depend on the processing

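The count of collagens called in Pectin_PFOS against PFOS ran from 7 to 26 when 1 library was left out, and in Pectin_PFOS against Pectin from 1 to 8. Without replicate 1 of Pectin_PFOS, 3.88% of all genes were called lower in the former comparison and 3.12% in the latter. The count against Pectin was 3 without the low-count filter, 2 with limma on log2(TPM + 1) and 11 with the replicate block, which gave 27 against PFOS. The count against PFOS was 16 without the low-count filter and 19 with the compared groups alone. It was 25 with DESeq2, 29 with library totals and 32 with limma on log2(TPM + 1). Where no collagen was called, leaving out 1 library gave 0 to 5 for Inulin against Control (4 without replicate 1 of Control, 5 without replicate 1 of Pectin_PFOS), 0 to 1 for Inulin_PFOS against Inulin, 0 to 2 for Inulin_PFOS against PFOS and 0 to 2 for the inulin interaction. DESeq2 gave 6 for Inulin against Control, 2 for Pectin against Control, 1 for Inulin_PFOS against Inulin, 4 for Inulin_PFOS against PFOS and 1 for the inulin interaction. For Inulin_PFOS against PFOS library totals gave 4, limma 11 and the compared groups alone 13. The cause was not tested. The median of the PFOS effect averaged over diets, -0.03, turned to 0.02 with limma and ran from -0.13 to 0.08 when 1 library was left out, and the inulin interaction median turned to -0.03 with limma. Library totals moved the median of all genes to -0.41 in Pectin_PFOS against PFOS, with collagens at -1.69, and to -0.27 in Pectin_PFOS against Pectin, with collagens at -0.81. Deviations of samples that share a replicate number had correlations from -0.26 to 0.30 between groups. For some samples the replicate number differs from the number in the title, so this check cannot tell whether samples are paired. Among single genes 348 values were no longer past the threshold and 81 newly were. Depth limits Col25a1, Col9a1, Col28a1 and Col4a4, which had few counts in Pectin_PFOS.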
